A study of Rattus norvegicus with 10 samples.

Results

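The genes of fatty acid oxidation and the targets of the nuclear receptor PPARα were followed in the whole livers of 10 cirrhotic rats. Of 39 listed genes, 37 had a probe set that carries their symbol alone, out of 14217 genes on the array, and a gene with several such probe sets was read from the one that varied most between rats. The thiolase gene Acaa1a and the hydroxylase gene Cyp4a2 were skipped, since their probe sets also carry Acaa1b and Cyp4a3. All the animals were male Wistar rats whose cirrhosis came from inhalation of CCl4, a hepatotoxic solvent. Each week, 5 of them received CVX-060, an inhibitor of the Tie2 ligand angiopoietin 2, at 10 mg/kg through the tail vein for 4 weeks, and 5 received vehicle. RNA from each liver was hybridised to an Affymetrix Rat Genome 230 2.0 array, and the arrays of a group are separate animals. No healthy liver was analysed here, and the feeding state and hour of death of the rats are not given in the sources used here. Values are log2 signals, in which a difference of 1 is a doubling.

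Fatty acids that enter a hepatocyte are joined to coenzyme A, carried into mitochondria by the carnitine shuttle and shortened there by β-oxidation, whose electrons pass to the respiratory chain through electron transfer flavoprotein. Very long and branched chains are shortened in peroxisomes, and microsomal CYP4A enzymes hydroxylate the far end of the chain. In fasting, fatty acids released from adipose tissue activate PPARα, which binds DNA with RXR and raises the transcription of many of these enzymes, of the hormone gene Fgf21 and of ketone body synthesis. The element bound by this pair is a direct repeat of AGGTCA with 1 base between the copies.

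To show the promoters of members closest to that element, the 250 bases before the start of each gene were searched on both strands. A promoter sequence in RefSeq (build GRCr8) was found for 32 of the 37 members, and 6 of them (18.8%) held the repeat with at most 2 mismatches in its 12 fixed letters. Of all 33469 rat promoters in the table, 3.15% held it. Acadvl and Fabp1 held it with 1 mismatch, as did 0.367% of all promoters, and the remaining 4 with 2. The matched 13 bases are in capitals, each sequence runs 5′ to 3′ on the strand of its gene, and a match is a description of the letters, not evidence of binding.
Acadvl, chr10:55236706-55236746, minus strand, 17 to 5 bases before the start: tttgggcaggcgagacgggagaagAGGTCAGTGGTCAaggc
Fabp1, chr4:104749239-104749299, plus strand, 77 to 65 bases before the start, element on the opposite strand: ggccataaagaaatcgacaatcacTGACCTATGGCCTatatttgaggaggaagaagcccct
Crat, chr3:34087286-34087346, minus strand, 223 to 211 bases before the start: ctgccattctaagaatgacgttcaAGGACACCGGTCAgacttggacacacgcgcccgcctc
Creb3l3, chr7:9273102-9273162, plus strand, 194 to 182 bases before the start: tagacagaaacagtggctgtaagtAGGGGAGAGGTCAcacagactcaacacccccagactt
Echs1, chr1:204333625-204333685, minus strand, 155 to 143 bases before the start, element on the opposite strand: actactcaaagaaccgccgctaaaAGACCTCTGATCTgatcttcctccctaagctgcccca
Etfa, chr8:64788083-64788143, minus strand, 154 to 142 bases before the start, element on the opposite strand: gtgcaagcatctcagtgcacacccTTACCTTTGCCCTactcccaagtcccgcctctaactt
These 6 members did not share a pattern over the rats. Crat, Creb3l3 and Acadvl were highest in vehicle rat 2, whereas Echs1, Fabp1 and Etfa were not.

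The median signal of the 10 arrays lay between 5.52 and 5.57. The hepatocyte marker Alb lay between 14.77 and 14.81 in every rat. The paper went on with 2 replicates of each treatment after quality control and PCA, and its text does not say which. All 10 arrays are used here. On the first principal component of all genes, vehicle rat 2 (34.5) and CVX-060 rat 5 (35.5) lay far from the other rats (-26.2 to 9.74). In the same 2 rats the male liver gene Cyp2c11 was low, at 8.99 and 11.42 against 12.69 to 13.93, and the female liver gene Cyp2c12 was high, at 12.71 and 12.02 against 7.11 to 9.79, although all rats are labelled male. As a background level, each array's 95th percentile over 19 probe sets for smell and pheromone receptors was taken, which lay between 5.36 and 6.08. Of the 37 members, 32 were above it in all 10 rats. Fgf21 was above it in 9 rats, Pex11a in 3, Acot1 and the probe set used for Hadha in 1 each, and Ppara itself in none.

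Members varied more between rats than most genes did. Their median SD over the 10 rats was 0.38, against 0.18 over all genes, and 15 members had an SD over 0.5, a spread reached by 6.57% of all genes. All genes, here and in the shares below, were not matched to the members for signal. The array medians, 5.52 to 5.57, lay within the range of the background levels, 5.36 to 6.08, whereas 32 members were above background in all rats. The part of signal level in these comparisons was not tested. The variation followed a pair of patterns that did not coincide with the treatment groups. In the first, a set of PPARα targets among the members was high in vehicle rat 2 alone. In the other, 10 members, most of them enzymes of β-oxidation and electron transfer, were lowest in CVX-060 rats 4 and 5.

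**Figure D1:**
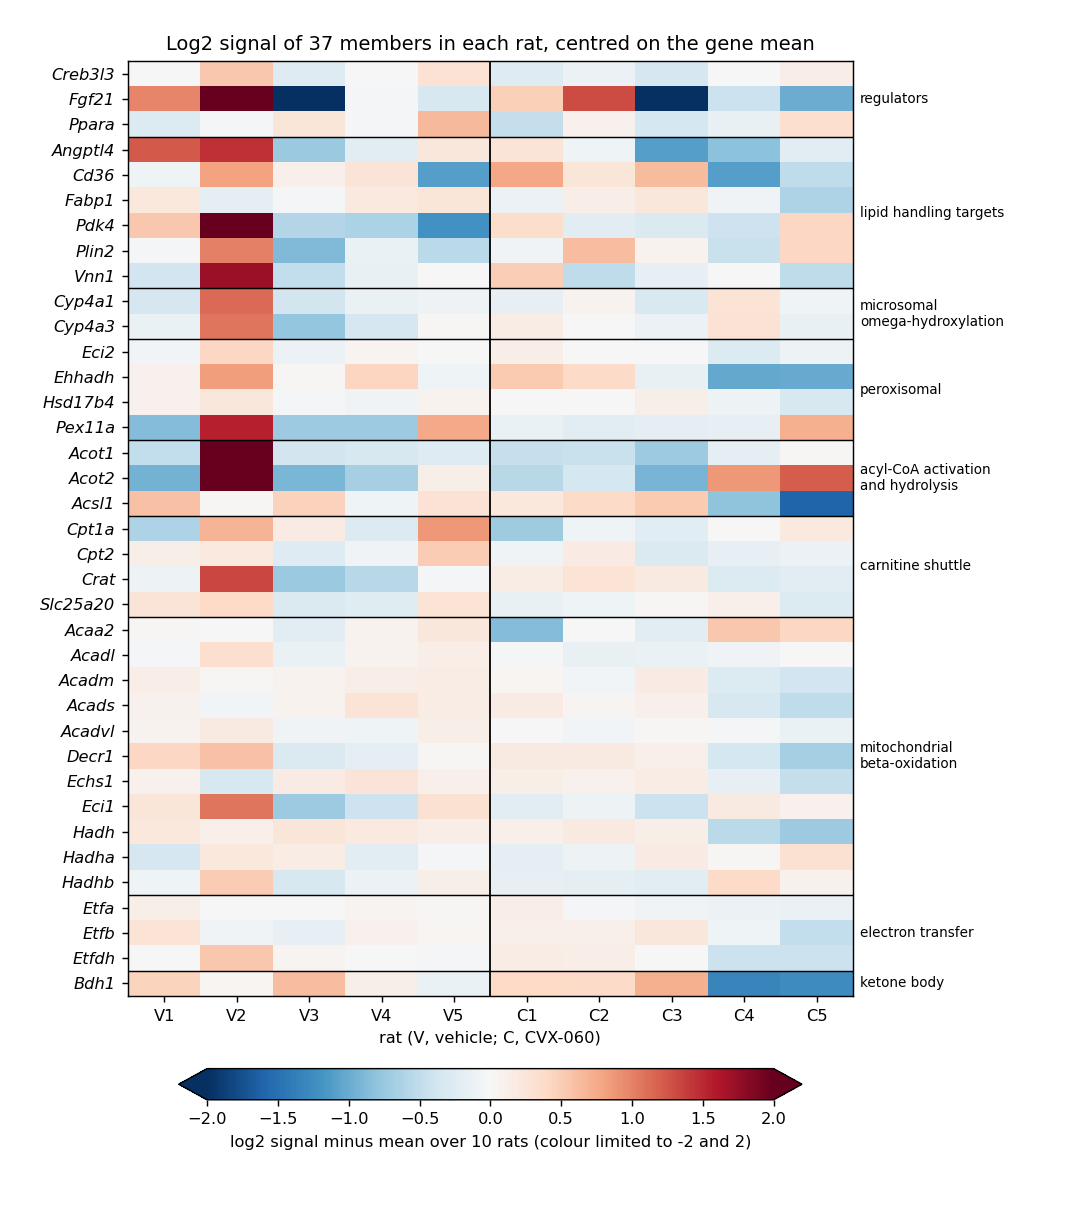
Log2 signal of each member (rows, grouped by role) in each rat (columns; V, vehicle, C, CVX-060, the vertical line separates the groups), minus the mean of that member over the 10 rats. Red is above and blue below the member's mean, with the colour limited at 2 and -2. Vehicle rat 2 (V2) was the highest rat for 23 of 37 members, and C4 and C5 were the 2 lowest rats for 10.

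Vehicle rat 2 was the highest of the 10 rats for 23 members (62.2%) and the lowest for 0, whereas it was highest for 14.9% of all genes and lowest for 15.7%. Its lead over the next rat exceeded 1 on the log2 scale for 5 members, Acot1, Fgf21, Pdk4, Vnn1 and Crat, as it did for 31 of the 14217 genes (0.218%). Acot1, a cytosolic thioesterase that releases fatty acids from coenzyme A, lay at 3.55, 7.26, 3.68, 3.72 and 3.78 in vehicle rats 1 to 5 and at 3.59, 3.60, 3.31, 3.85 and 4.07 in CVX-060 rats 1 to 5. Vehicle rat 2 was thus the only rat with Acot1 above background, and the other 9 could not be ordered. Fgf21, a hormone that the liver releases in fasting, lay at 9.16, 11.92, 5.58, 8.15 and 7.86 with vehicle and at 8.65, 9.48, 6.04, 7.74 and 7.18 with CVX-060. It was lowest in rat 3 of each group and spanned the widest range of any member.

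Pdk4, the kinase that switches off pyruvate dehydrogenase when fat is burned, lay at 11.75, 13.25, 10.64, 10.59 and 10.01 with vehicle and at 11.57, 10.998, 10.93, 10.81 and 11.62 with CVX-060. A dimmer probe set of Pdk4 was also highest in vehicle rat 2, at 8.9999 against 5.97 to 7.21 in the other rats. Vnn1, a pantetheinase of coenzyme A turnover, was at 9.97 in vehicle rat 2 and at 7.74 to 8.73 in the others. Crat, which moves acetyl and other short groups between coenzyme A and carnitine, was at 9.71 there and at 7.62 to 8.64 in the others.

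**Figure D2:**
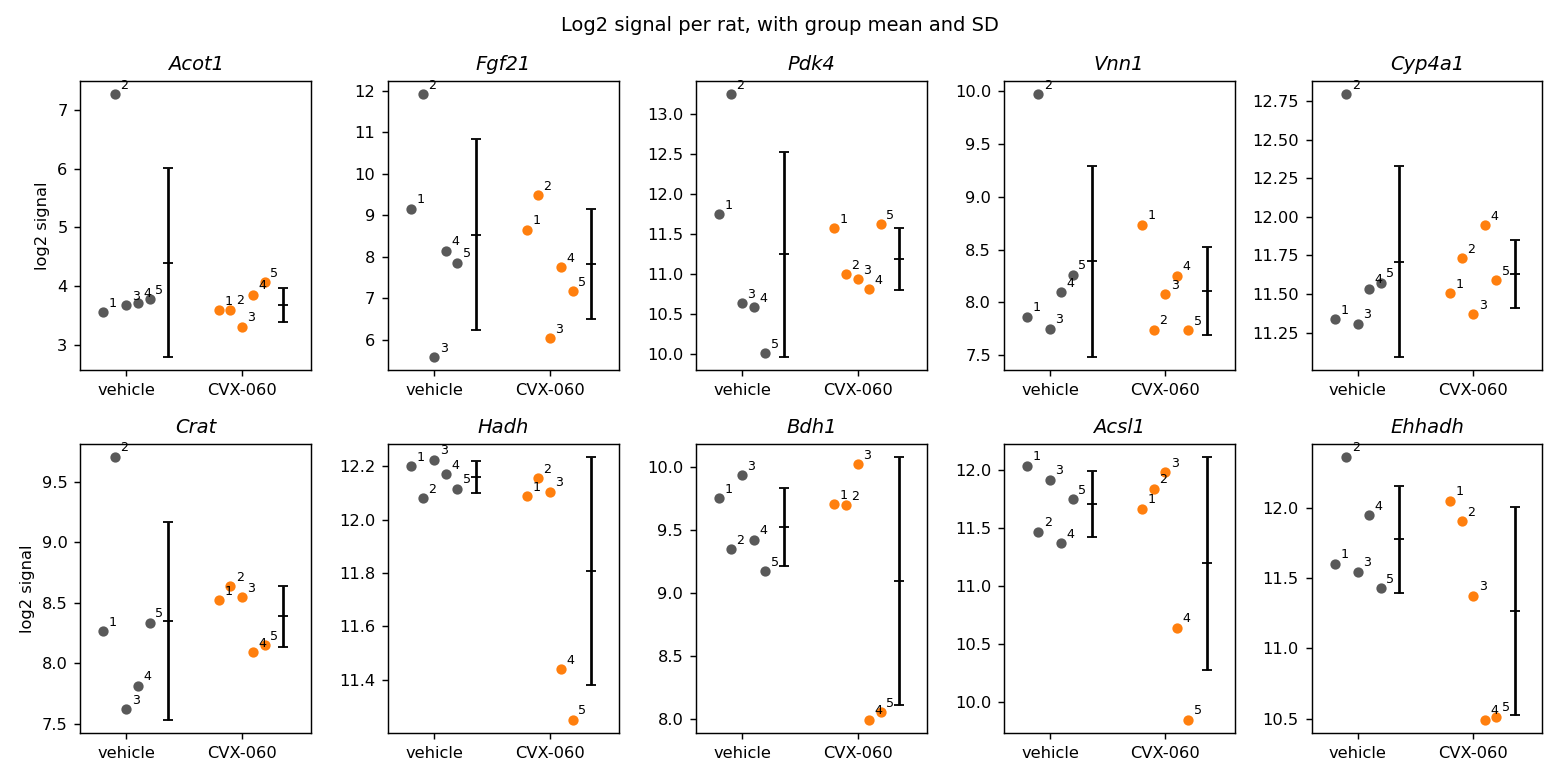
Log2 signal of 10 members in each rat (points, numbered by rat; grey, vehicle, orange, CVX-060), with bars for the mean and SD of the 5 rats of a group. The axes differ between genes and do not start at 0. In Acot1, Fgf21, Pdk4, Vnn1, Cyp4a1 and Crat, vehicle rat 2 lay above the other 9 rats, and in Hadh, Bdh1, Acsl1 and Ehhadh, CVX-060 rats 4 and 5 lay below the other 8.

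The same rat led in both CYP4A genes. Cyp4a1 was at 12.79 in vehicle rat 2 and between 11.31 and 11.94 in the other 9, and Cyp4a3, whose near-identical relatives may share its probes, was at 13.24 against 11.40 to 12.46. The peroxisome proliferation factor Pex11a was at 7.46 there and at 5.05 to 6.67 in the others, and its brighter probe set was at 9.52 against 7.07 to 8.75. Of the 6 lipid handling targets, 5 were highest in vehicle rat 2. Among them, the fatty acid transporter gene Cd36 was at 8.34, only just above CVX-060 rat 1 at 8.31, the lipoprotein lipase inhibitor gene Angptl4 was at 11.19, next to vehicle rat 1 at 10.96, and the lipid droplet coat gene Plin2 was at 8.73, against 6.84 to 8.34 elsewhere. Fabp1, the abundant fatty acid binding protein of hepatocytes, did not share this, with 13.46 in vehicle rat 2 inside the range of 13.03 to 13.90 of the others. Nor did Ppara, at 4.82 in vehicle rat 2 and below background in all rats.

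Of the 11 β-oxidation enzymes, 5 were highest in vehicle rat 2, and none of the 11 led there by over 1. Eci1, an isomerase for unsaturated chains, was at 13.03 against 11.24 to 12.27 in the others, and Hadhb, the thiolase subunit of the trifunctional protein, was at 12.03 against 11.21 to 11.90. Echs1, the enoyl-CoA hydratase of short chains, lay at 11.43 there, below every rat but CVX-060 rat 5 at 11.27. A mitochondrial set of 17 was made of these 11, the 3 electron transfer genes and Cpt1a, Cpt2 and Slc25a20, without Bdh1, Acot2, Pdk4 and Crat, which also work in mitochondria but were counted by other roles. Averaged over this set, each member centred on its mean over the rats, vehicle rat 2 lay at 0.26 and the others between -0.19 and 0.18. Over the other 20 members it lay at 1.16, and the others between -0.41 and 0.09. The split depends on where those 4 genes are counted, and with them in the mitochondrial set, a choice made after seeing the data, vehicle rat 2 lay at 0.47 over 21 mitochondrial members and at 1.10 over the other 16.

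The lead of vehicle rat 2 was smaller in related genes outside the member list. Of 36 further PPARα targets and lipid droplet genes, 11 were highest and 4 lowest there. Their mean was 0.22 in this rat, with CVX-060 rat 2 next at 0.10. It was highest for 5 of 23 further mitochondrial genes and for 6 of 25 further peroxisomal genes. Of 13 measured genes of fed-state lipogenesis, 8 were lowest and 1 was highest in vehicle rat 2, and their mean was -0.76 in this animal, the lowest rat, and 0.75 in vehicle rat 4, the highest. Fasn, the fatty acid synthase, was at 7.14 there and at 8.44 to 9.86 in the other rats, whereas Me1, the malic enzyme, was highest there, at 9.78 against 8.38 to 9.52. The 12 measured gluconeogenesis genes averaged 0.04 in vehicle rat 2, within the range of -0.30 to 0.30 of all rats. Hepatocyte markers averaged -0.14 there and between -0.04 and 0.07 in the other rats, over 20 of 22 listed genes. Of the 20, 6 were lowest and 2 highest there. Fga was at 10.72 there and at 11.08 to 13.02 in the others, and the mean without it was not computed. Fgb, also counted, was below background in all rats. Of the stellate cell and myofibroblast markers, 14 of 14 were measured and averaged 0.31 in vehicle rat 2, the highest of the 10 rats, whose range was -0.47 to 0.31. The 7 measured cholangiocyte markers were also highest there, at 0.52 in a range of -0.56 to 0.52. The part of cell makeup, sex-typed expression and feeding in the high targets of this rat was not tested.

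The other pattern set CVX-060 rats 4 and 5 apart. They were the 2 lowest rats for 10 members (27.0%), as they were for 4.63% of all genes. The 10 were Acadm, Acads, Hadh, Decr1, Etfa and Etfdh of the mitochondrion, Ehhadh and Hsd17b4 of the peroxisome, the ketone body enzyme gene Bdh1 and the fatty acid activating enzyme gene Acsl1. Bdh1, which makes β-hydroxybutyrate from acetoacetate, lay at 9.75, 9.35, 9.93, 9.42 and 9.17 with vehicle and at 9.70, 9.70, 10.02, 7.99 and 8.05 with CVX-060. Its brighter probe set had the same 2 rats lowest, at 9.30 and 9.43 against 10.16 to 10.78. Acsl1 was at 12.04, 11.47, 11.92, 11.37 and 11.75 with vehicle and at 11.67, 11.84, 11.98, 10.64 and 9.85 with CVX-060. CVX-060 rats 1 to 3 were thus inside or next to the vehicle range for both genes.

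Hadh, the 3-hydroxyacyl-CoA dehydrogenase of medium and short chains, was the tightest of these members in the other rats. It lay at 12.20, 12.08, 12.22, 12.17 and 12.12 with vehicle and at 12.09, 12.15, 12.10, 11.44 and 11.25 with CVX-060. Ehhadh, the bifunctional enzyme of peroxisomes, was at 11.60, 12.36, 11.55, 11.95 and 11.43 with vehicle and at 12.05, 11.90, 11.37, 10.49 and 10.51 with CVX-060, so that it took part in both patterns. Smaller gaps were seen for Acadm, the medium-chain acyl-CoA dehydrogenase, at 11.91 and 11.80 against 12.14 to 12.35, for its short-chain relative Acads, at 9.91 and 9.73 against 10.17 to 10.50, and for Etfdh, which hands electrons from the flavoprotein to ubiquinone, at 10.02 and 10.03 against 10.44 to 11.004.

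Acot2, the mitochondrial relative of Acot1, ran against the enzymes of this pattern. It was at 6.57, 9.68, 6.59, 6.85 and 7.63 with vehicle and at 6.95, 7.15, 6.59, 8.38 and 8.72 with CVX-060, so that the 3 rats that stood out in either pattern held its 3 highest values. Its 2 other probe sets had the same 3 rats on top. Acot1 and Acot2 are close paralogs, and probes of one may read the other. The thiolase gene Acaa2 was also high in CVX-060 rats 4 and 5, at 8.74 and 8.61 against 7.34 to 8.43. Hadhb, at 11.90 in CVX-060 rat 4, was higher in no rat but vehicle rat 2. The 23 further genes of mitochondrial oxidation and ketogenesis averaged -0.05 and -0.0026 in CVX-060 rats 4 and 5, inside the vehicle range of -0.07 to 0.12. The 25 further peroxisomal genes averaged -0.04 and -0.31 in CVX-060 rats 4 and 5, where the vehicle range was -0.08 to 0.14. Over the hepatocyte markers these 2 rats averaged 0.02 and -0.04, and the other rats ranged from -0.14 to 0.07. CVX-060 rat 5 was lower in these markers than every rat but vehicle rat 2.

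The clock gene Bmal1 differed between rats by more than most members did. It lay at 7.90, 7.95, 5.13, 4.87 and 4.88 with vehicle and at 8.38, 8.75, 8.17, 5.75 and 5.21 with CVX-060. CVX-060 rats 4 and 5 were thus in the low group of 5 rats, together with vehicle rats 3 to 5. In these vehicle rats Hadh lay at 12.12 to 12.22, Bdh1 at 9.17 to 9.93, Acsl1 at 11.37 to 11.92 and Ehhadh at 11.43 to 11.95. All 5 rats of the low group were below background for Bmal1, so that their Bmal1 values have no order. Whether the hour of death had a part in the members' values was not tested.

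Pearson correlations over the 10 rats were computed for all 666 pairs of members, with permutation p-values from 100000 resamples. No pair reached an adjusted p of 0.05 (0 by r, with a lowest adjusted p of 0.0599, and 0 by Spearman's rho, with a lowest of 0.182), whereas 179 pairs by r and 98 by rho had an unadjusted p under 0.05. The median r was 0.35, and 121 pairs had an r above 0.7. Without vehicle rat 2 the median was 0.13 and 82 pairs passed 0.7, 59 of them in both. Pairs outside the mitochondrial set depended most on that rat, with a median r of 0.47 over 190 pairs that was 0.08 without it. The 136 mitochondrial pairs had a median of 0.31, and 0.24 without it.

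The most correlated pair was Hadh and Acsl1, with r = 0.95 (permutation p = 2.07e-03, adjusted p = 0.0717) and rho = 0.71 (permutation p = 0.0267, adjusted p = 0.283). Without the 2 rats farthest from the median of Hadh, r was 0.38, so the relation rests on those rats. Ehhadh and Etfdh had r = 0.94 (permutation p = 1.80e-04, adjusted p = 0.0599) and rho = 0.83 (permutation p = 4.86e-03, adjusted p = 0.208), and r was 0.82 without the 2 rats farthest from the median of Ehhadh. Vehicle rat 2, the highest rat for both genes, stayed in. The most negative pair was Echs1 and Acot2, with r = -0.88 (permutation p = 3.05e-03, adjusted p = 0.0752) and rho = -0.67 (permutation p = 0.0386, adjusted p = 0.325), and r was -0.81 without the 2 farthest rats, vehicle rat 2 and CVX-060 rat 5. CVX-060 rat 4 stayed in, with the lowest Echs1 (11.58) and the highest Acot2 (8.38) of the rest. Without that rat as well, r was not computed. Acot1 and Cyp4a1 had r = 0.92, which was 0.49 without vehicle rat 2.

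**Figure D3:**
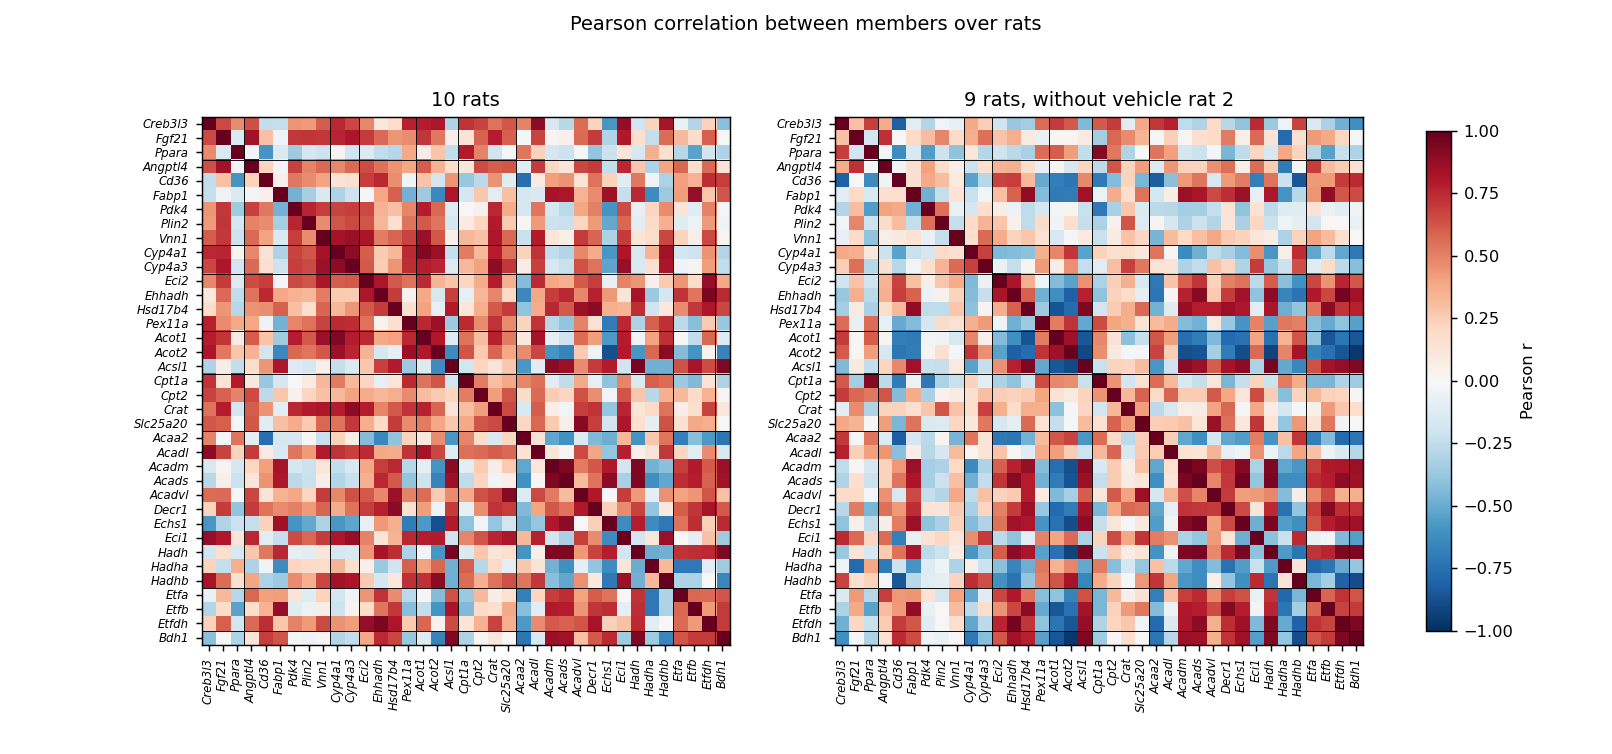
Pearson r between every pair of the 37 members over 10 rats (left) and over 9 rats without vehicle rat 2 (right), with members in the same order, grouped by role (thin lines). Among the 11 regulators, lipid handling targets and omega-hydroxylases the median r of 55 pairs is 0.47 on the left, where 17 pairs, each with Ppara, Fabp1 or Cd36, are negative, and 0.11 on the right. The block of Acadm, Acads, Hadh, Echs1 and the electron transfer genes is mostly red in both panels, which both hold C4 and C5. Without the 2 rats farthest from the first gene's median, C4 and C5, r is 0.12 for Acadm and Hadh and -0.62 for Acadm and Etfdh. It is 0.82 for Acads and Echs1, where V2, the lowest of the remaining rats for both genes, stays in. Other β-oxidation enzymes differ, since over 10 rats Hadh has an r of -0.48 with Hadhb and -0.59 with Acaa2, but 0.68 with Decr1.

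The question of the treatment was then taken up, that is, whether the members differed between CVX-060 and vehicle. No member differed beyond the spread between rats. With limma and Benjamini-Hochberg adjustment over all genes, 0 of 37 members and 0 of 14217 genes (0%) had an adjusted p under 0.05. At an unadjusted p under 0.05 the counts were 0 members and 347 genes (2.44%), and by the exact permutation test 0 members passed 0.05. The groups overlapped for all 37 members, as they did for all but 0.485% of genes. Mean signal was lower with CVX-060 for 30 members and higher for 7, where 47.4% of all genes were lower, and the median difference was -0.16, against 0.01 over all genes. Without vehicle rat 2, 23 members were lower, where 47.8% of all genes were, with a median of -0.08, and without CVX-060 rat 5 as well, 22 were lower, with a median of -0.03.

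**Figure D4:**
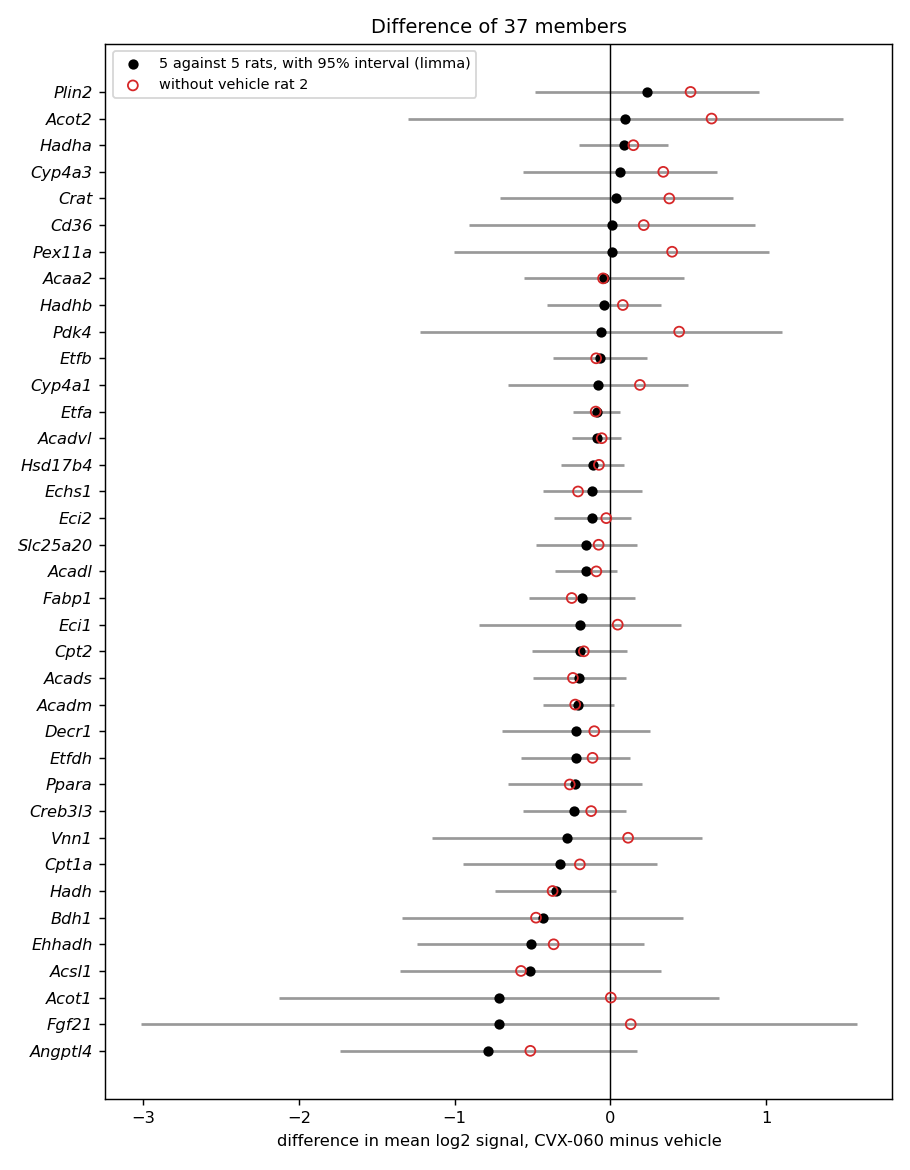
Mean log2 signal with CVX-060 minus that with vehicle for each member (black points, 5 rats a group) with its 95% interval from limma (grey lines), and the difference without vehicle rat 2 (open red circles). All 37 intervals include 0, and 30 black points lie below 0, as do 23 of the red circles.

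The smallest p among the members was that of Hadh, which lay at 12.16 ± 0.06 with vehicle and 11.81 ± 0.43 with CVX-060 (mean ± SD, n = 5 each). Its difference was -0.35 (95% interval -0.74 to 0.04, limma p = 0.0728, adjusted p = 0.99997, exact permutation p = 0.0635). The 2 low CVX-060 rats carried it, since the other 3 lay between 12.09 and 12.15. A dim second probe set of Hadh, below background, had a difference of -0.33 (limma p = 4.59e-03, adjusted p = 0.99997 over all probe sets, no exact permutation test run). The widest difference was that of Angptl4, at 10.11 ± 0.94 and 9.33 ± 0.56 (mean ± SD, n = 5 each), or -0.78 (interval -1.74 to 0.17, exact permutation p = 0.167), and it was -0.51 without vehicle rat 2. The differences of Fgf21 (-0.72) and Acot1 (-0.71) were at 0.13 and 0.0030 without that rat, and with all 5 CVX-060 rats below background for Acot1, that of Acot1 does not measure a size.

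By role, 10 of the 11 mitochondrial β-oxidation enzymes were lower, with a median of -0.16, and 8 were lower without vehicle rat 2, with a median of -0.09. Acadl and Acadvl, dehydrogenases of long chains, had differences of -0.16 and -0.09, Acadm -0.20 (exact permutation p = 0.0952), Acads -0.20, Decr1, a reductase for unsaturated chains, -0.22, Echs1 -0.11 and Hadhb -0.04. The exception was Hadha, the other subunit of the trifunctional protein, whose probe set of highest variance was near background and had a difference of 0.09, whereas its bright probe set, at 9.97 to 10.59, had -0.11. Acaa2 was at -0.04 by the probe set used and at 0.10 by a brighter one.

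In the carnitine shuttle, Cpt1a, the rate-limiting outer membrane transferase, lay at 8.06, 9.36, 8.83, 8.40 and 9.54 with vehicle and at 7.97, 8.59, 8.45, 8.68 and 8.87 with CVX-060, a difference of -0.33 (interval -0.95 to 0.30). Its highest rats were vehicle rats 5 and 2, inside a vehicle group that spanned the CVX-060 values almost whole. The inner membrane transferase Cpt2 and the carrier Slc25a20 were at -0.20 and -0.15, and Crat was at 0.04, or 0.38 without vehicle rat 2. The flavoprotein subunit genes Etfa and Etfb had differences of -0.09 and -0.07, and Etfdh one of -0.22. Bdh1 was at -0.43 (interval -1.34 to 0.47) and Acsl1 at -0.51 (-1.35 to 0.33).

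The 6 lipid handling targets had a median difference of -0.12, which was 0.16 without vehicle rat 2, when 4 of the 6 were higher. Plin2 had the highest difference of any member, 0.23 (interval -0.49 to 0.96), and Fabp1 was at -0.18. Cyp4a1 and Cyp4a3 were at -0.08 and 0.06, and at 0.19 and 0.34 without that rat. Creb3l3, a membrane-bound transcription factor of the fasting liver, was at -0.23 and Ppara, with all 10 rats below background, at -0.23, which does not measure a size.

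Mitochondrial and peroxisomal enzymes were set side by side in each rat. The mean of the 17 mitochondrial members was 0.08 ± 0.14 with vehicle and -0.08 ± 0.07 with CVX-060 (mean ± SD, n = 5 each), and 0.03 with vehicle without rat 2. Only Ehhadh and Hsd17b4, a multifunctional enzyme for branched and very long chains, remained for peroxisomal β-oxidation. Their mean was 0.16 ± 0.22 with vehicle and -0.16 ± 0.43 with CVX-060. The mitochondrial minus the peroxisomal mean was -0.03, -0.27, -0.09, -0.21 and 0.20 with vehicle and -0.35, -0.19, -0.02, 0.48 and 0.47 with CVX-060. It was highest in CVX-060 rats 4 and 5, and the groups overlapped, with a difference between them of 0.16, which was 0.06 when either of these 2 rats was left out. The contrast depended on the genes that stood for the peroxisome, since it was 0.03 once Eci2 and Pex11a were counted as peroxisomal, and -0.03 with 25 further peroxisomal genes.

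**Figure D5:**
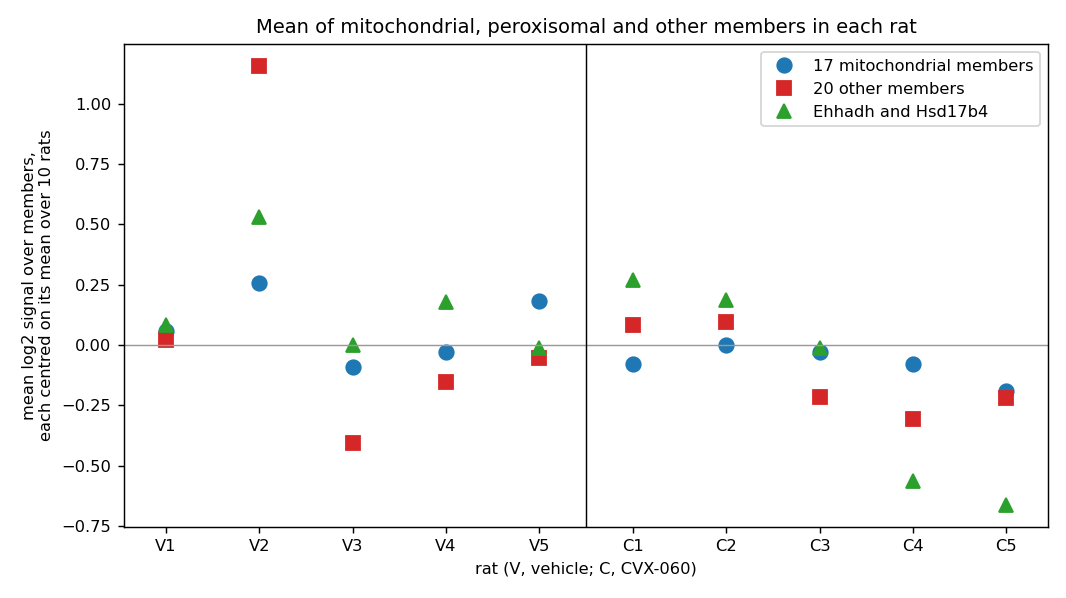
Mean log2 signal over the 17 mitochondrial members (blue circles), the 20 other members (red squares) and the 2 peroxisomal β-oxidation enzymes among them (green triangles) in each rat (V, vehicle, C, CVX-060), with each member centred on its mean over the 10 rats. The red square of vehicle rat 2 lies at 1.16, and the green triangles of CVX-060 rats 4 and 5 at -0.56 and -0.66.

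Over all 37 members the mean was 0.04, 0.74, -0.26, -0.09 and 0.05 in vehicle rats 1 to 5 and 0.01, 0.05, -0.13, -0.20 and -0.21 in CVX-060 rats 1 to 5. The groups were at 0.10 ± 0.38 and -0.10 ± 0.12 (mean ± SD, n = 5 each), a difference of -0.19, which was -0.03 without vehicle rat 2.

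Bmal1 entered a further fit as a covariate, since it differed widely between rats. It was above background in 5 rats only, 2 with vehicle and 3 with CVX-060, and its lower values have no order. In that fit 32 members were lower with CVX-060, as were 6792 of 14216 genes. An unadjusted p under 0.05 was reached by 9 of 37 members, all of them lower, against 816 genes (5.74%). These were Acadm, Hadh, Ehhadh, Hsd17b4, Decr1, Etfdh, Bdh1, Acsl1 and Angptl4, with differences from -0.19 for Hsd17b4 to -1.11 for Angptl4. All of them but Angptl4 were among the 10 members for which CVX-060 rats 4 and 5 were the 2 lowest rats. Those 2 were the only CVX-060 rats below background for Bmal1, and their part in this count was not tested. None passed after adjustment, the lowest adjusted p being 0.715 for Decr1 (difference -0.46).

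Among other genes of the pathway, 23 of 25 further peroxisomal genes were lower with CVX-060, with a median difference of -0.07 and 0 past an adjusted p of 0.05. Of all genes, 47.4% were lower. The mean of the 25 was -0.31 in CVX-060 rat 5. It was between -0.04 and 0.09 in the other CVX-060 rats, inside the vehicle range of -0.08 to 0.14. Pex13, a peroxisomal import factor, was at -0.14 (exact permutation p = 0.0714) and the acyl-CoA synthetase gene Slc27a2 at -0.18. Of 23 further mitochondrial oxidation and ketogenesis genes, 12 were lower, with a median of -0.02. Of 36 further PPARα targets and lipid droplet genes, 20 were lower, with a median of -0.02. Acsl5, an acyl-CoA synthetase, had the smallest p of these, with 6.90 to 7.20 in vehicle rats and 7.14 to 7.89 in CVX-060 rats, a difference of 0.46 (exact permutation p = 0.0159, adjusted p = 0.99997 by limma). Of 25 regulators and coactivators of PPAR, 18 were lower, with a median of -0.04, and none of these lists had a gene past an adjusted p of 0.05.

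The regulator of smallest p was Nr1d1, a clock repressor that acts against Bmal1, at 6.03 to 7.01 in vehicle rats and 5.08 to 5.97 in CVX-060 rats. The groups did not overlap, and the difference was -0.84 (exact permutation p = 0.0079, the smallest that 252 splits can give, limma adjusted p = 0.99997). Nr1d1 was above background in all 5 vehicle rats but in only 1 that received CVX-060, so that this difference does not measure a size. Of 16 clock genes measured, 12 were lower, with a median of -0.25. Lipogenesis genes were lower for 8 of 13 (median -0.02) and gluconeogenesis genes for 8 of 12 (median -0.08).

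Markers of other liver cells were measured beside the members. All 10 measured macrophage markers and all 10 measured endothelial markers were higher with CVX-060, with medians of 0.25 and 0.27 and 0 past an adjusted p of 0.05. Summed as centred means, macrophage markers ranged from -0.30 to 0.02 in vehicle and from -0.34 to 0.42 in CVX-060 rats, and endothelial markers from -0.49 to 0.08 and from -0.13 to 0.27. Of 14 stellate markers, 11 were higher (median 0.14), and of 7 cholangiocyte markers, 4 (median 0.02). Hepatocyte markers had a median of -0.0026, with 11 of 20 lower. The part of these cells in the members' differences was not tested, and in whole liver fewer hepatocytes and less RNA per hepatocyte cannot be told apart.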

How the data were processed

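Whole-liver RNA of 10 rats was measured on arrays from 150 ng each. The table the authors deposited holds log2 signals, normalized between arrays by them, and their processing notes list R 3.4.0 with affy 1.56.0 and limma 3.38.2. How background was corrected and probes were summarised is not given in the sources used here. The table has 31099 probe sets, of which 20826 carry the symbol of 1 gene and cover 14217 genes; 57 control probe sets, 436 with several symbols and 9780 with none were not used. Each gene was read from its most variable probe set.

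Groups were compared with limma 3.58.1 (lmFit, eBayes; R 4.3.3), and p-values were adjusted by Benjamini-Hochberg over all genes tested. Exact permutation tests were two-sided over 252 splits of the rats, with 0.0079 as the smallest p. Scores, correlations and plots were made in Python 3.11.15 (scipy 1.17.1, numpy 2.4.6, matplotlib 3.10.9, pandas 2.3.3). The steps were tested on simulated data. Members and gene lists were chosen with earlier results of these data known. All measured members are named, beside up to 4 genes of each other list by the smallest p, the most and least correlated pairs, and Bmal1. Alb, Cyp2c11, Cyp2c12 and the further pairs of members were chosen after their values were seen.

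The comparison was repeated with the brightest probe set per gene, with every probe set, without genes under the 40th percentile of mean signal, after a further quantile normalization, with equal array medians, with array weights, with a trended and robust prior, with the replicate number as a block, without each rat in turn, without vehicle rat 2 and CVX-060 rat 5, and with Bmal1 as a covariate. Scores were also taken as medians, as z-scores and over members above background, and background also at the 90th and 99th percentiles. The replicate numbers did not pair the rats. The number of arrays limits the precision.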

Additional observations from a re-analysis of the deposited data

Results flagged for a closer look

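In 5 of 74 groups of 5 rats, taken member by member, the highest rat lay so far from the others that the gap exceeded 0.71 of the group's range, which is Dixon's 95% critical value for 5 samples. Chance gives about 1 in 20 such groups. Vehicle rat 2 accounted for 4 of them. Etfdh lay at 11.004 in that rat and at 10.44 to 10.51 in the other vehicle rats. Acot1 was at 7.26 against 3.55 to 3.78, Cyp4a1 at 12.79 against 11.31 to 11.57, and Vnn1 at 9.97 against 7.75 to 8.26. The remaining one was Pex11a, at 6.62 in CVX-060 rat 5 and at 5.69 to 5.79 in the other CVX-060 rats. These 4 rats were below background, and with the brighter probe set of Pex11a, at 8.57 against 7.78 to 8.10, the gap was 0.594 of the range, under the critical value.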

How the results depend on the processing

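Under every alternative run, 0 members and 0 genes had an adjusted p under 0.05. At an unadjusted p under 0.05, 0 members passed as reported, beside 347 of 14217 genes. With the replicate block 1 member passed, beside 389 genes, and without vehicle rat 2 and CVX-060 rat 5 again 1, beside 581. With Bmal1 as a covariate 9 passed, beside 816 of 14216 genes. With every probe set tested 1 passed, beside 557 of 20826 probe sets. With each rat left out 0 to 3 passed, beside 290 to 713 genes (3 beside 329 without vehicle rat 3). The replicate numbers share only a number, with correlations of deviations between same-numbered rats from -0.17 to 0.15, and only rat 3 correlated best with its own number. The mitochondrial minus peroxisomal difference, 0.16 as reported, was 0.0022 with array weights, 0.015 without vehicle rat 2 and CVX-060 rat 5, 0.31 with Bmal1 as a covariate, and 0.060 to 0.27 with each rat left out.

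Of 700 member differences recomputed, 644 kept their sign and 56, in 16 members, did not. With the probe set of highest mean, Hadha was at -0.11 and Acaa2 at 0.10. With array weights, Decr1 was at 0.0105, Etfb at 0.0004, Pdk4 at 0.31, Cyp4a1 at 0.059, Vnn1 at 0.016 and Fgf21 at 0.30. Without vehicle rat 2 and CVX-060 rat 5, Hadhb was at 0.053, Eci1 at 0.0027, Decr1 at 0.036, Etfb at 0.025, Pdk4 at 0.33, Cyp4a1 at 0.20, Vnn1 at 0.21 and Fgf21 at 0.29. With Bmal1 as a covariate, Crat was at -0.24, Acaa2 at 0.11, Cyp4a3 at -0.082 and Cd36 at -0.34. With each rat left out, the differences ranged from -0.18 to 0.17 for Acaa2, -0.92 to 0.0030 for Acot1, -0.20 to 0.65 for Acot2, -0.26 to 0.29 for Cd36, -0.14 to 0.38 for Crat, -0.18 to 0.19 for Cyp4a1, -0.12 to 0.34 for Cyp4a3, -0.40 to 0.048 for Eci1, -0.13 to 0.049 for Etfb, -1.45 to 0.13 for Fgf21, -0.14 to 0.080 for Hadhb, -0.37 to 0.44 for Pdk4, -0.21 to 0.40 for Pex11a and -0.44 to 0.11 for Vnn1. Apart from settings that leave out rats, the cause of these changes was not tested. Signal over background limits Ppara, Acot1, Pex11a (above it in 3 rats), the probe set used for Hadha, and the low values of Bmal1. At the 90th percentile 33 members were above background in all 10 rats and at the 99th 30, against 32 as reported. At the 90th percentile Pex11a was above it in 9 rats, the probe set used for Hadha in 8 and Ppara in 4.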
